A study of Mus musculus with 15 samples.

Results

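In isolated left ventricular heart muscle cells, genes of the atrial program varied widely between arrays of the same group, and none of those tested passed the test of iron-ion exposure against sham. The 7 genes examined, markers of the atrium and of the natriuretic peptide system, were Nppa, Nppb, Myl7, Myl4, Sln, Bmp10 and Dkk3. They were taken by name from 19937 genes with 1 probe set each, and 4 of the 7 (Nppa, Nppb, Myl7 and Myl4) were among the 9968 genes bright enough to be tested. The atrial light chain Myl7 spanned 41.9-fold over 15 arrays, Sln 29.7-fold, Myl4 27.2-fold and the hormone gene Nppa 8.94-fold, while Dkk3, Nppb and Bmp10 spanned 2.35-fold, 2.26-fold and 2.14-fold. Nppa was lowest on day 28 and Bmp10 highest on day 7.

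Every group consisted of cells from male C57Bl/6NT mice, 8 to 9 months old. Mice had whole-body exposure to 0.15 Gy of iron ions at 1 GeV per nucleon (linear energy transfer near 151 keV per µm) or a sham exposure. Iron groups were collected on day 1 (3 arrays), day 3 (3 arrays), day 7 (2 arrays), day 14 (2 arrays) and day 28 (2 arrays). The sham group held 2 arrays of day 1 (replicates 1 and 2) and 1 array of day 3 (replicate 3), so exposure and time since exposure cannot be told apart for days 7, 14 and 28. The preparation was a collagenase digest with selection for calcium tolerance, and its labels allow for a few inflammatory or endothelial cells. The labels do not tie arrays to individual mice, so p-values here measure the spread between arrays, which may be technical. In bulk RNA, fewer cells of a type and less RNA per cell cannot be told apart.

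Heart muscle cells of the atria and ventricles use different versions of several contractile proteins and also differ in what they secrete. Nppa encodes atrial natriuretic peptide and Nppb encodes B-type natriuretic peptide, hormones that promote salt and water excretion and relax vessels through a receptor that makes cyclic GMP. Adult ventricle normally keeps Nppa low and raises both genes under load. Myl7 and Myl4 are the regulatory and essential myosin light chains of the atrium, the counterparts of Myl2 and Myl3 in the ventricle, and Sln encodes sarcolipin, a small inhibitor of the calcium pump of the atrial sarcoplasmic reticulum. Bmp10 is a secreted growth factor made by the adult right atrium, and Dkk3 is a secreted protein of the Dickkopf family that is enriched in atria.

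Nppb and Nppa are neighbours on chromosome 4 with the same orientation. Their upstream sequences are shown with that of Myl7 because these 3 genes differed in range. Among the 3, the hormone gene Nppb had the narrowest range, the hormone gene Nppa a wider one, and the atrial gene Myl7 the widest. RefSeq's GRCm38.p6 promoter table held 5 of the 7 members, and the 250 bases upstream of the listed start sites were searched. The coordinates are chr4:148000472-148000721 (plus strand) for Nppa, chr4:147985650-147985899 (plus strand) for Nppb and chr11:5898783-5899032 (minus strand) for Myl7. Capitals mark motif matches.
Nppa: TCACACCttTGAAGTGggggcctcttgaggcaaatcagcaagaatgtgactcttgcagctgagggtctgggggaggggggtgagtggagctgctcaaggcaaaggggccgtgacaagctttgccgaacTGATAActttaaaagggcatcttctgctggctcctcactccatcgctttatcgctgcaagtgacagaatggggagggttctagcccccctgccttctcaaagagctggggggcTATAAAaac
Nppb: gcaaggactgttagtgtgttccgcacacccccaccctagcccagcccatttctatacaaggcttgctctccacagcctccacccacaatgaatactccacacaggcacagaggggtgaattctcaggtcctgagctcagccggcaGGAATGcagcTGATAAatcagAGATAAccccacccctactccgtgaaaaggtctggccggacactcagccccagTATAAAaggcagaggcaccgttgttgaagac
Myl7: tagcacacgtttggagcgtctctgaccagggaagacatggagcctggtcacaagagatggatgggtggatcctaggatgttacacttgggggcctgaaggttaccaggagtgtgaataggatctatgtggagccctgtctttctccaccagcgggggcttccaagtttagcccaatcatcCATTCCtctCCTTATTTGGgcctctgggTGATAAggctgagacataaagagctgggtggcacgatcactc

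The motifs were chosen with the sequences in view and searched on both strands, and overlaps between motifs were allowed. They were the TATA box (TATAAA), sites of GATA factors (AGATAA, its variant that starts with T, and both of these with a final G), a T-box site (TCACACC), a site of NK2 homeobox factors (TGAAGTG), the M-CAT element (GGAATG) and the CArG box bound by serum response factor. Nppa held a T-box site next to an NK2 site at the far end, a GATA site and a TATA box. Nppb held an M-CAT element, a pair of GATA sites and a TATA box. Myl7 held an M-CAT element on the opposite strand, a CArG box and a GATA site. Bmp10 held 2 GATA sites and Myl4 held no match. Among 32536 distinct promoter windows of the same length, the TATA box was present in 12.3%, a GATA site in 26.5%, the T-box site in 3.33%, the NK2 site in 3.31%, the M-CAT element in 12.6% and the CArG box in 1.48%. The matches describe letters only.

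The cells carried the label's own markers. Myh6, the main adult mouse cardiac myosin, lay between 12.02 and 12.28 on the log2 scale in all 15 arrays, and the mean of 8 cardiomyocyte markers lay between 11.08 and 11.45. Pairs of arrays correlated between 0.960 and 0.994 over all named genes. A pair of arrays stood apart in the members: sham replicate 1 (day 1) and iron day 3 replicate 3 were the highest and the second highest in Nppa, Myl7, Myl4 and Sln. Most results that rest on them are given with and without them. The fits that adjust for the atrial genes and the medians of the members are given only with them. Without them was chosen after their values were seen.

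**Figure D1:**
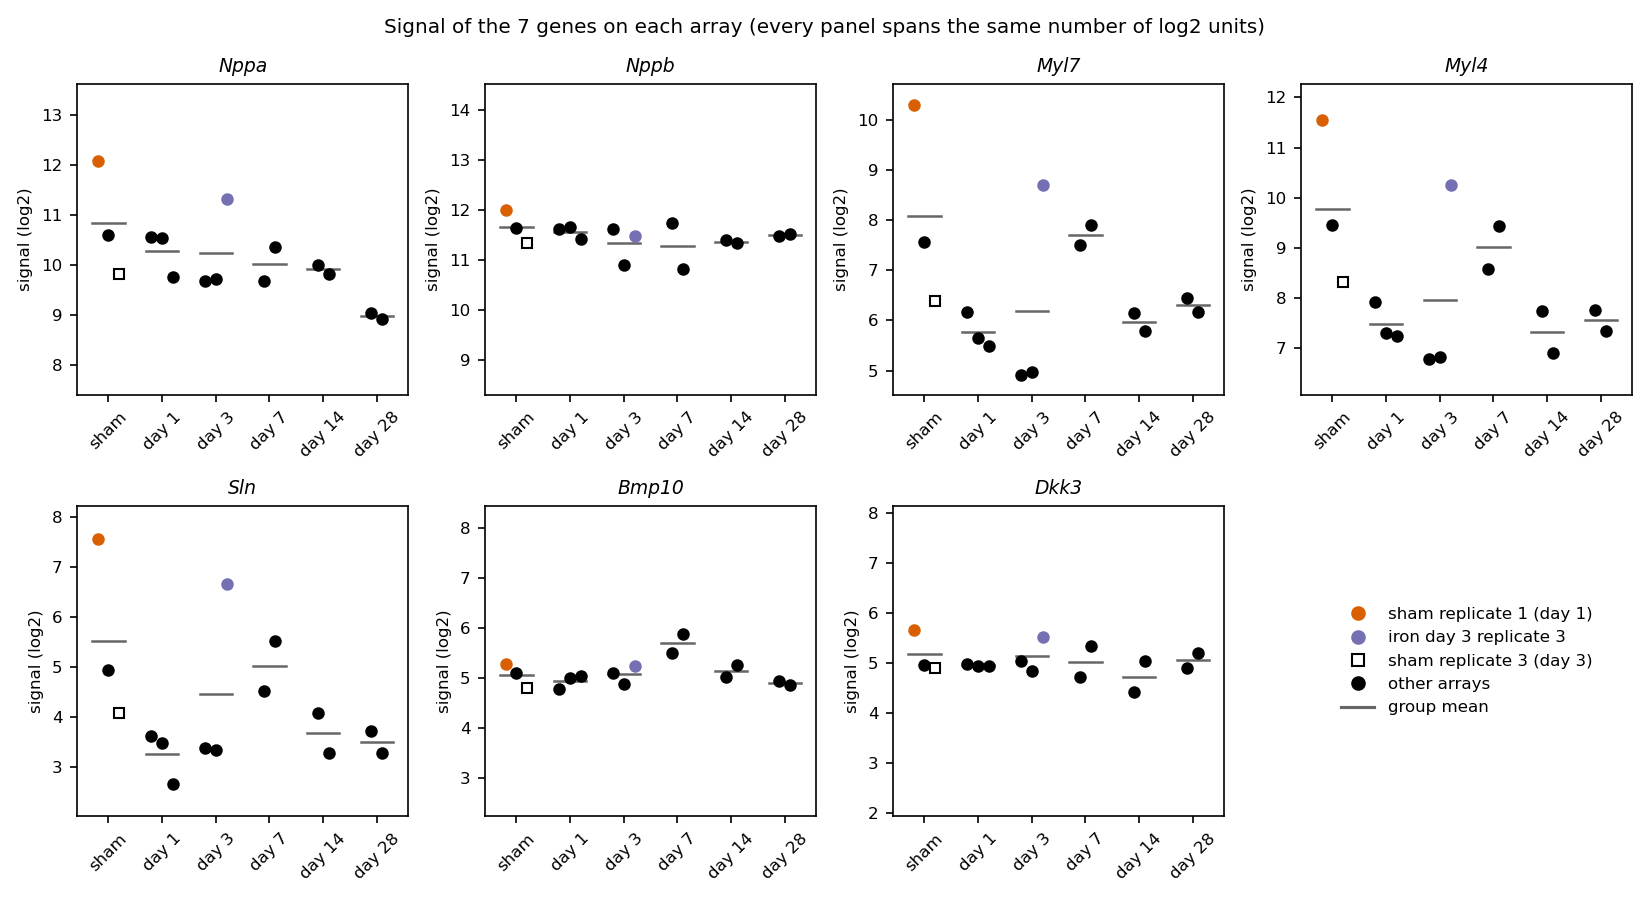
Log2 signal (vertical axis) of each member on each of 15 arrays, by group (horizontal axis); points are arrays, grey bars are group means, and every panel spans the same number of log2 units. Sham replicate 1 and iron day 3 replicate 3 sit far above the rest of their groups for Myl7, Myl4, Sln and Nppa, while Nppb, Bmp10 and Dkk3 span 2.26-fold, 2.14-fold and 2.35-fold over all arrays.

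Nppa was read at 12.08 and 10.60 in the day 1 sham arrays and 9.81 in the day 3 sham array (log2 signal). Its iron arrays were at 10.56, 10.53 and 9.75 on day 1, 9.68, 9.71 and 11.32 on day 3, 9.67 and 10.34 on day 7, 10.00 and 9.82 on day 14, and 9.03 and 8.92 on day 28. Both day 28 arrays were below every other array, and the other iron days overlapped the sham range. The day 28 difference from sham was -1.85 ± 0.567 (standard error, SE), with an adjusted p of 0.110 (limma, Benjamini-Hochberg over all genes tested). It was -2.36 with an adjusted p of 0.0269 when the day 3 sham array was left out, and -1.23 with 0.290 when sham replicate 1 was left out.

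Nppb had one of the brightest probe sets, in the 99.6th percentile of mean signal. It was at 11.99 and 11.64 in the day 1 sham arrays and 11.34 in the day 3 sham array. Iron arrays were at 11.61, 11.65 and 11.41 on day 1, 11.62, 10.90 and 11.48 on day 3, 11.74 and 10.82 on day 7, 11.39 and 11.34 on day 14, and 11.47 and 11.52 on day 28. Every iron group overlapped the sham range. The lowest values were single arrays of day 3 and day 7, and the other day 7 array was the second highest of all 15. Differences from sham lay between -0.37 ± 0.2499 on day 7 and -0.09 ± 0.224 on day 1, with adjusted p values in limma of 0.388 and 0.892.

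Myl7, the atrial regulatory light chain, was at 10.31 and 7.57 in the day 1 sham arrays and 6.39 in the day 3 sham array. Iron arrays were at 6.17, 5.66 and 5.50 on day 1, 4.92, 4.97 and 8.71 on day 3, 7.51 and 7.90 on day 7, 6.16 and 5.80 on day 14, and 6.45 and 6.17 on day 28. Day 1 and day 14 lay wholly below the sham arrays, and both day 7 arrays were above every other iron array except the high one of day 3. The difference from sham was -2.31 ± 0.949 on day 1 and -0.38 ± 1.06 on day 7, with adjusted p values in limma of 0.386 and 0.864.

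Myl4, the atrial essential light chain, followed a similar order of arrays. It was at 11.54 and 9.45 in the day 1 sham arrays and 8.31 in the day 3 sham array. Iron arrays were at 7.92, 7.29 and 7.23 on day 1, 6.78, 6.82 and 10.25 on day 3, 8.58 and 9.43 on day 7, 7.74 and 6.89 on day 14, and 7.75 and 7.34 on day 28. Days 1, 14 and 28 lay wholly below the sham arrays. The differences were -2.29 ± 0.849 on day 1, -2.45 ± 0.950 on day 14 and -2.22 ± 0.950 on day 28, and their adjusted p values in limma were 0.348, 0.245 and 0.222.

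Sln, the calcium pump inhibitor, had a dim probe set whose mean signal fell below the limit for testing, so its differences come from a fit on all 19937 genes. Sham arrays were at 7.57 and 4.95 on day 1 and 4.08 on day 3. Iron arrays were at 3.62, 3.49 and 2.68 on day 1, 3.39, 3.34 and 6.66 on day 3, 4.54 and 5.53 on day 7, 4.09 and 3.28 on day 14, and 3.73 and 3.29 on day 28. Days 1 and 28 lay wholly below sham. The day 1 difference was -2.27 ± 0.857, with an adjusted p of 0.395 in limma.

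Bmp10, also dim and fitted with all genes, was at 5.27 and 5.09 in the day 1 sham arrays and 4.81 in the day 3 sham array. Iron arrays were at 4.79, 4.996 and 5.04 on day 1, 5.09, 4.89 and 5.24 on day 3, 5.50 and 5.89 on day 7, 5.02 and 5.26 on day 14, and 4.95 and 4.86 on day 28. The 2 day 7 arrays were the highest of all 15. The day 7 difference from sham was 0.64 ± 0.163, with an adjusted p of 0.0589 in limma.

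Dkk3, the third dim member, was at 5.65 and 4.96 in the day 1 sham arrays and 4.90 in the day 3 sham array. Iron arrays were at 4.97, 4.94 and 4.94 on day 1, 5.04, 4.84 and 5.52 on day 3, 4.71 and 5.33 on day 7, 4.42 and 5.03 on day 14, and 4.91 and 5.20 on day 28. Its highest values were again sham replicate 1 and iron day 3 replicate 3, and all groups overlapped. The widest difference from sham was -0.45 ± 0.262 on day 14, with an adjusted p of 0.425 in limma.

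The spread inside groups set these members apart in scale. The residual standard deviation within groups (9 residual degrees of freedom) was 1.41 log2 units for Myl7, the 14th largest of 19937 genes, 1.30 for Sln, 1.26 for Myl4 and 0.752 for Nppa, the 101st largest. Dkk3 was at 0.336, Nppb at 0.328 and Bmp10 at 0.186. The median of the genes tested was 0.137 and their 95th percentile 0.336.

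Sham replicate 1 exceeded the mean of the other 2 sham arrays 10.0-fold in Myl7, 8.30-fold in Sln, 6.32-fold in Myl4 and 3.68-fold in Nppa. Iron day 3 replicate 3 exceeded the other 2 day 3 arrays 13.6-fold in Myl7, 10.9-fold in Myl4, 9.80-fold in Sln and 3.08-fold in Nppa. Mybphl, an atrial myosin-binding protein that is no member, was 5.91-fold and 3.11-fold higher in these arrays, while Nppb was 1.42-fold and 1.17-fold higher. The ventricular light chains Myl2 and Myl3, close to the top of the signal scale, were at 0.990 and 0.985 of the other sham arrays and 0.976 and 0.970 of the other day 3 arrays. Mybphl was 1 of 13 other atrial-enriched genes listed and the only one over 2-fold in either array. Over the 13, sham replicate 1 ranged from 0.929 (Kcna5, an atrial potassium channel) to 5.91 times the other sham arrays, with a median of 1.17 and 12 of 13 above 1. Iron day 3 replicate 3 ranged from 0.880 (Sbk2) to 3.11 times the other day 3 arrays, with a median of 1.05 and 8 of 13 above 1.

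**Figure D2:**
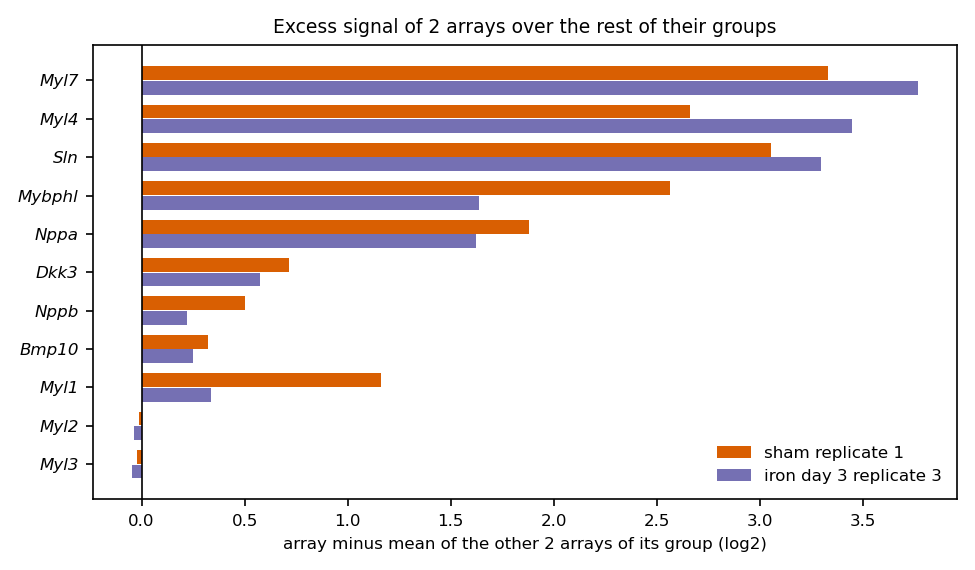
Log2 signal of sham replicate 1 and iron day 3 replicate 3 minus the mean of the other 2 arrays of the same group (horizontal axis), for members, Mybphl and other myosin light chains (vertical axis). The bars are longest for Myl7, Sln and Myl4, shorter for Nppa, and near 0 for Myl2 and Myl3.

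Over all 15 arrays, markers of other cells ranked differently on these 2 arrays. Sham replicate 1 had the highest mean of 10 endothelial markers (8.48) and of 9 fibroblast markers (7.25) among 15 arrays, and the second highest of 8 smooth muscle and pericyte markers (7.66). Iron day 3 replicate 3 ranked 12th in endothelial (7.30) and fibroblast (6.01) markers among the 15 arrays. Within its own group it was the highest in both. The other day 3 arrays were at 6.89 and 7.02 in endothelial and 5.95 and 5.81 in fibroblast markers. Its conduction system mean (8 of 9 markers on the array, 5.87) was the highest of all, within a span of 5.51 to 5.87. No defining marker read on the array was at 0 in log2 signal. As no detection call was used, this does not show that its cell type was present. The autonomic neuron, Schwann cell and erythroid lists had no defining marker here. The part of other cell types in the members' values was not tested. Endothelial means ran from 8.09 to 8.48 in sham, 7.24 to 8.41 on day 1, 6.89 to 7.30 on day 3, 7.45 to 8.06 on day 7, 7.35 to 8.00 on day 14 and 8.16 to 8.21 on day 28.

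Against sham, 0 of 4 tested members were called on any day at an adjusted p under 0.05 in limma. The share of all genes called was 0.0602% on day 1, 8.04% on day 3, 4.61% on day 7, 0.833% on day 14 and 2% on day 28. At an unadjusted p under 0.05, 3 of the 7 members passed on day 1 (Myl4, Myl7 and Sln) and 0 on day 3. On day 7, 1 passed (Bmp10), with 1 on day 14 (Myl4) and 2 on day 28 (Myl4 and Nppa). Of the 9968 genes tested, 1101 passed at this level on day 1, 2715 on day 3 and 2396 on day 7. There were 1536 on day 14 and 1922 on day 28. All 7 members had a lower mean than sham on days 1 and 28, and 6 of 7 on each of days 3, 7 and 14, where the exception was Bmp10. These comparisons share the same 3 sham arrays, and the counts depended on sham replicate 1 and iron day 3 replicate 3. Without both of these arrays, the members above sham were Nppa, Nppb and Dkk3 on day 1, Bmp10 and Dkk3 on day 3 and Bmp10 on day 14. They were Myl7, Myl4, Sln, Bmp10 and Dkk3 on day 7 and Nppb and Dkk3 on day 28. The other members stayed below sham on each day. With all arrays kept, the median difference of the 4 tested members was -1.42 on day 1, -1.21 on day 3 and -0.57 on day 7. It was -1.51 on day 14 and -1.82 on day 28, while the median over all genes tested lay between -0.034 and 0.037.

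Some iron groups did not overlap sham at all. On day 1, 3 of 7 members (Myl7, Myl4 and Sln) had every array below every sham array, as did 4.68% of all genes. On day 14 this held for Myl7 and Myl4 (12.2% of all genes), and on day 28 for Nppa, Myl4 and Sln (12.8% of all genes). On day 7 only Bmp10 lay wholly above sham, among 21.3% of all genes.

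**Figure D3:**
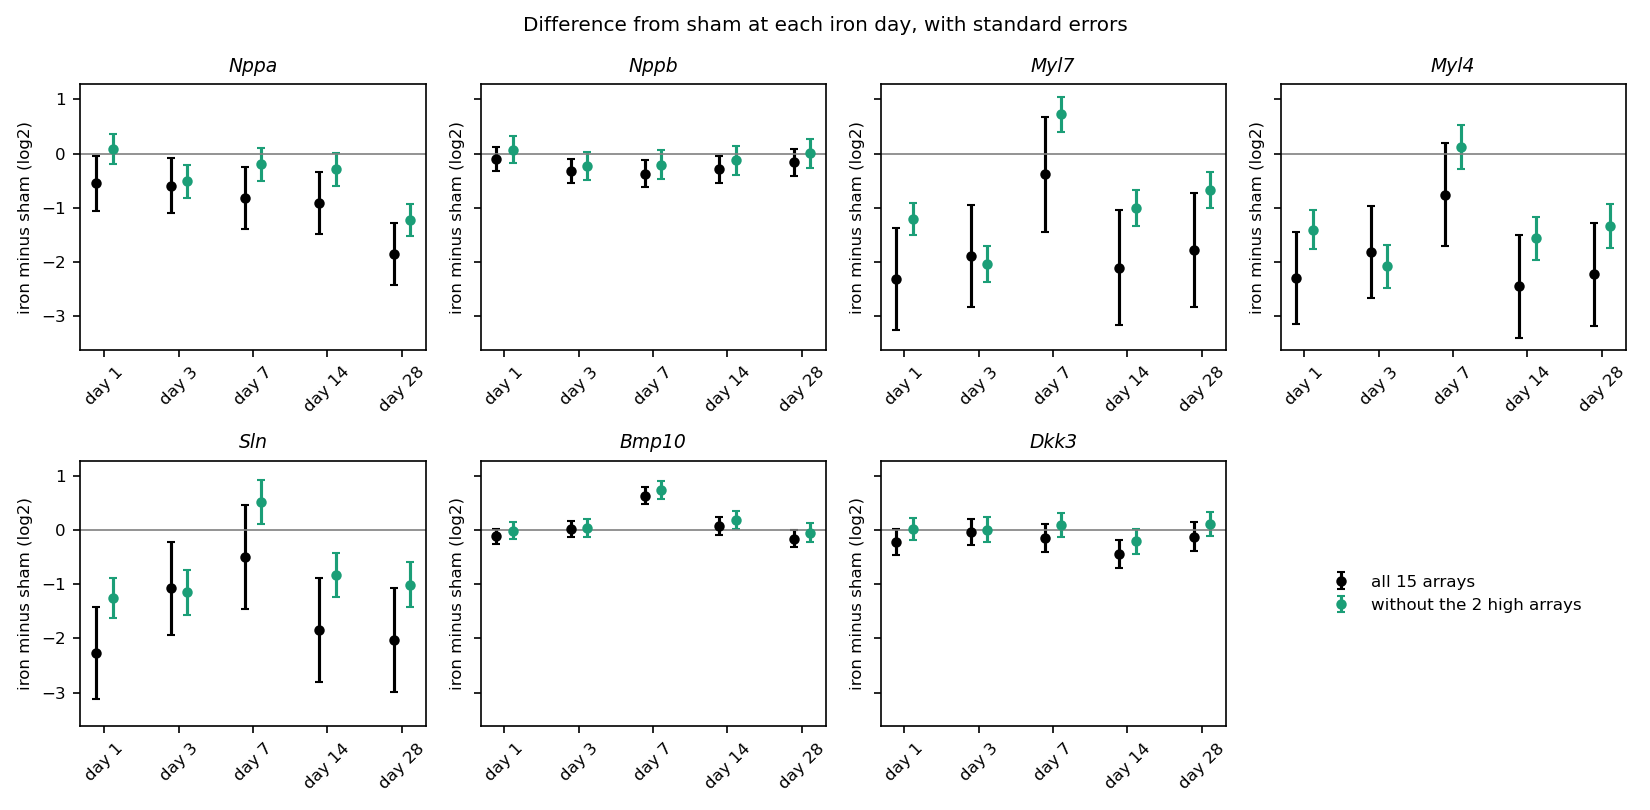
Difference in log2 signal between each iron day and sham (vertical axis) for the 7 members, with standard errors, from all 15 arrays (black) and without sham replicate 1 and iron day 3 replicate 3 (green). Without the 2 arrays the bars shrink for Myl7, Myl4 and Sln, and the day 7 points of these genes move from below 0 to above 0.

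Leaving out both high arrays changed what could be read from the light chains. The standard error of the day 3 difference of Myl7 went from 0.949 to 0.327. Myl7 was then lower than sham on day 3 by a difference of -2.04, which passed narrowly (adjusted p = 0.0493 in limma; 0.211% of all genes called), and Myl4 was at -2.08 with an adjusted p of 0.0611. With only iron day 3 replicate 3 left out, Myl7 (-3.15, adjusted p = 0.0425 in limma) and Myl4 (-2.97, adjusted p = 0.0335 in limma) passed on day 3, where 3.77% of all genes were called. With only sham replicate 1 left out they were at -0.78 and -0.93, with adjusted p values of 0.597 and 0.508. The day 3 call for the light chains thus turned on which of these arrays was kept. On day 7 the differences turned from -0.38 to 0.72 for Myl7, from -0.76 to 0.12 for Myl4 and from -0.50 to 0.52 for Sln, and none of these passed.

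The iron arrays were also compared among themselves, which does not use the sham arrays' means. In all 15 arrays, the late iron arrays (days 7, 14 and 28) less the early ones (days 1 and 3) gave -0.63 ± 0.358 for Nppa, 0.68 ± 0.671 for Myl7, 0.24 ± 0.601 for Myl4 and -0.06 ± 0.158 for Nppb, and 0 of 4 were called in limma (22% of all genes were). An F test among the 5 iron days also called 0 of 4, against 19.2% of all genes. At an unadjusted p under 0.05, Bmp10 alone of the 7 passed in either. Of all 19937 genes in the fit with no filter, 5160 passed in late against early and 5641 in the F test.

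Without the 2 high arrays, Myl7 was higher in late than in early iron arrays by 1.30 ± 0.200 (adjusted p = 0.00283 in limma) and Myl4 by 0.82 ± 0.246 (adjusted p = 0.0451 in limma), with 15.9% of all genes called. Both then also passed the F test among iron days, with adjusted p values of 0.00689 and 0.0364 in limma (8.89% of all genes called). Sln was higher by 0.76 ± 0.252 with an adjusted p of 0.0874, and Nppa was at -0.35 ± 0.186 with 0.210. Early Myl7 values, the high array aside, lay between 4.92 and 6.17 and late ones between 5.80 and 7.90, with the 2 day 7 arrays highest. With only iron day 3 replicate 3 left out, the late minus early differences were the same, but neither light chain was called. Myl7 was at 1.30 ± 0.512 and Myl4 at 0.82 ± 0.447 (adjusted p = 0.0945 and 0.222 in limma). The F test then gave adjusted p values of 0.162 and 0.198 in limma. Sham replicate 1 enters these comparisons only through the shared estimate of the spread, so the calls depended on leaving it out too.

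Nppa was set against the atrial genes through a covariate, the mean of Myl7, Myl4 and Sln on each array. At an equal atrial mean, Nppa was lower in late than in early iron arrays by a difference of -0.83 ± 0.106 (adjusted p = 0.000599 in limma; 20.3% of all genes called), and it differed among the iron days (adjusted p = 0.00217 in limma, F test; 13.1% of all genes called). The residual spread of Nppa became smaller with the covariate, and its standard error for late minus early went from 0.358 to 0.106. Against sham, the differences with the covariate were 0.71 ± 0.181 on day 1, 0.28 on day 3, -0.52 on day 7, 0.26 on day 14 and -0.75 ± 0.189 on day 28, with adjusted p values of 0.0927 or more. The sign was opposite to the plain difference on days 1, 3 and 14. No fit with the covariate was made without sham replicate 1 and iron day 3 replicate 3, which were far above their groups in the covariate's genes. How far the adjusted differences rest on these arrays was therefore not tested. Without both arrays and without the covariate, Nppa in late against early iron was at -0.35 ± 0.186 (adjusted p = 0.210 in limma).

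Bmp10 was the member that differed among iron days in all arrays, with an adjusted p of 0.0382 in limma in the fit of all genes, which called 9.98% of them. The call was lost without the 2 high arrays (adjusted p = 0.0516) and with the atrial mean as covariate (adjusted p = 0.0976). Its day 7 difference from sham was 0.74 ± 0.170 without the 2 arrays (adjusted p = 0.0917 in limma). With the covariate the day 7 difference was 0.68 ± 0.148 and passed (adjusted p = 0.0411 in limma). In the covariate fit of the brighter genes, 385 of 9966 were called on day 7. No covariate fit was made without the 2 high arrays. The same 2 day 7 arrays had the highest means of 9 epicardial and mesothelial markers, 7.62 and 8.30, against 6.37 to 7.60 in sham and 7.59 to 7.61 on day 28. Upk3b, the defining mesothelial marker, was at 9.36 to 10.05 on day 7 and 7.82 to 8.64 in sham. The day 7 means of 9 macrophage markers, 7.74 to 8.31, were likewise above the 7.18 to 7.53 of sham, and the cardiomyocyte mean was 11.08 to 11.23 against 11.28 to 11.35. Their part in the Bmp10 and Myl7 values of day 7 was not tested.

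Day 28, where Nppa was lowest, had other marker shifts beside it. The mean of 7 lymphocyte markers on the array (of 10 listed) was 8.06 to 8.15 there and 3.88 to 6.91 in sham, and the mean of 4 adipocyte markers was 6.94 to 7.24 against 5.69 to 6.80. Cd3e, which defines T cells, was at 7.67 to 7.68 against 5.67 to 6.86, and Adipoq at 5.60 to 6.18 against 3.73 to 5.24. The cardiomyocyte mean was 11.26 to 11.27. Their part in the day 28 value of Nppa was not tested.

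The sham arrays differed among themselves, with the day 3 array the lowest in every member. Sham replicate 1, the highest, exceeded sham replicate 2 of the same day: 10.31 against 7.57 in Myl7, 11.54 against 9.45 in Myl4, 7.57 against 4.95 in Sln and 12.08 against 10.60 in Nppa. With a single sham array on day 3, its own level and the day cannot be told apart. The day 3 sham array minus the day 1 sham arrays was -2.54 ± 1.29 for Myl7, -2.18 ± 1.17 for Myl4, -1.53 ± 0.657 for Nppa and -0.48 ± 0.320 for Nppb. None of the 4 was called in limma, and Nppa alone of them had an unadjusted p under 0.05 (0.0373); 0.371% of all genes were called. The day 3 side is 1 array, assumed to vary like the other groups.

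Across the 15 arrays, Myl7, Myl4 and Sln were high and low on the same arrays. Myl7 and Myl4 had a Pearson r of 0.980 (permutation p = 1e-05, the smallest that the permutations could give; 7e-05 adjusted over 21 pairs) and a Spearman rho of 0.971 (adjusted permutation p = 0.000105). Without the 2 arrays farthest from the median, sham replicate 1 and iron day 3 replicate 3, r was 0.944. Myl7 with Sln had r 0.955, rho 0.868 and r 0.880 without the 2 arrays, and Myl4 with Sln had 0.967, 0.900 and 0.915. Deviations from group means gave 0.987, 0.980 and 0.985 for these 3 pairs.

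The r of Nppa with the atrial genes was higher for deviations from group means than for the levels. Its r over the 15 arrays was 0.732 with Myl7 (adjusted permutation p = 0.0091), 0.791 with Myl4 and 0.808 with Sln (both adjusted permutation p = 0.00235), and rho was 0.486, 0.582 and 0.586 (adjusted permutation p = 0.241, 0.108 and 0.108). Without the 2 arrays r fell to 0.249, 0.424 and 0.412, so the relation over all arrays rests on them. Deviations from group means gave r 0.953 with Myl7, 0.947 with Myl4 and 0.979 with Sln, and 0.830, 0.796 and 0.929 without the 2 arrays, a setting chosen after the values were seen. Nppa and Nppb, the chromosomal neighbours, had r 0.348 and rho 0.211, and r 0.004163 without the 2 arrays. Of 21 pairs of members, 10 passed an adjusted p under 0.05 by r, and 3 by rho and 3 by r without the 2 arrays.

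**Figure D4:**
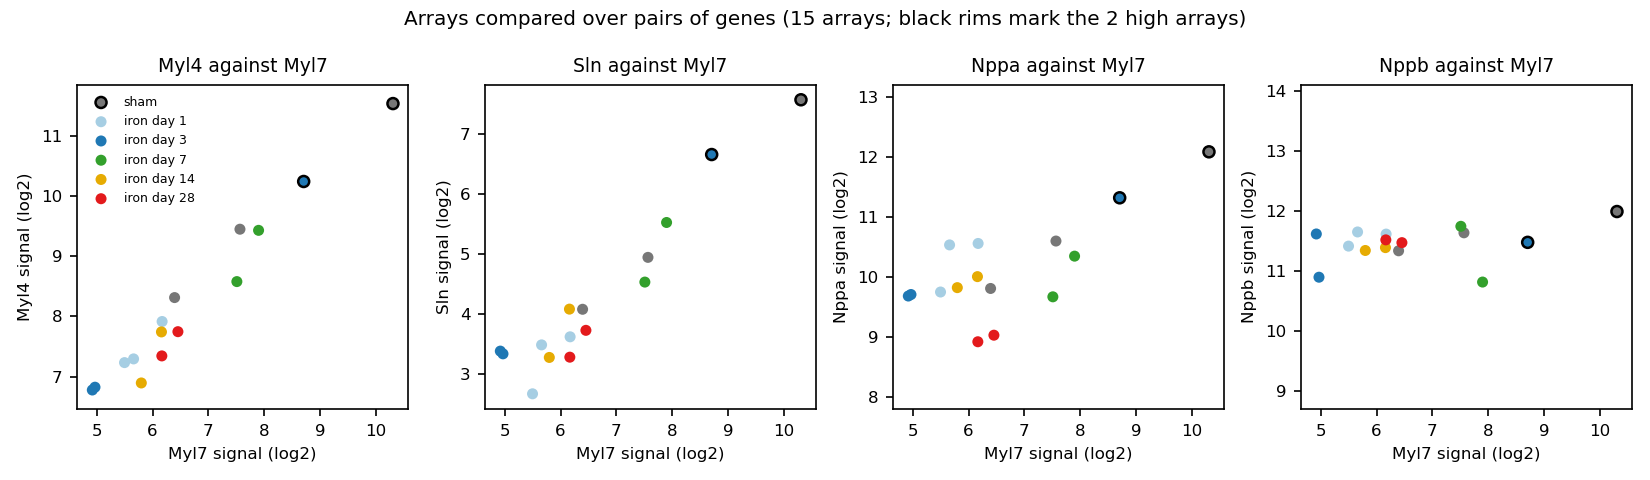
Log2 signal of Myl4, Sln, Nppa and Nppb (vertical axes) against Myl7 (horizontal axis) on 15 arrays, coloured by group, with black rims on sham replicate 1 and iron day 3 replicate 3. Myl4 and Sln lie along a line with Myl7 (r 0.980 and 0.955), Nppa has the day 28 arrays below the rest, and Nppb spans 2.26-fold over the arrays.

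Among other genes tested, those most like each member over the 15 arrays were named by Pearson r, as a description. Nppa was most like Myl1 (r 0.857), the fast skeletal essential light chain that atrial cells also use, then Tpm2 (0.852), the beta tropomyosin, and Maea (0.838). Myl1 was at 9.33 in sham replicate 1 and at 7.01 and 6.88 on day 28, the same ends of the range as Nppa. Nppb was most like Slmap (0.851), a membrane protein of the sarcolemma and sarcoplasmic reticulum, Mfge8 (0.827) and the titin-binding Ankrd23 (0.809). Myl7 was most like Clec4a3 (0.826), Tbc1d1 (0.817) and the growth factor Igf2 (0.787), and the same genes came first for Myl4 (Igf2 0.799, Clec4a3 0.780 and Tbc1d1 0.772). Sln was most like Scrn1 (0.715), Clec4a3 (0.714) and Igf2 (0.712), and Scrn1 was at 0.401 without the 2 high arrays. Bmp10 was most like Dpm2 (0.828), Trex1 (0.823) and Prkag3 (0.821), and Dkk3 most like Oxt (0.787), Cst3 (0.706) and Tbx2 (0.698).

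Receptors and processing enzymes of the natriuretic peptides were called in late against early iron. Of 14 listed genes 10 were tested, and 2 rose and 3 fell, where 22% of all genes were called. Npr1, the receptor that answers both peptides by making cyclic GMP, was at 5.76, 5.12 and 5.09 on day 1, 5.05, 5.39 and 5.30 on day 3, 6.53 and 6.16 on day 7, 5.68 and 5.90 on day 14, and 6.49 and 6.37 on day 28, with 5.76, 5.74 and 5.96 in sham. It rose by 0.90 ± 0.120 from early to late iron (adjusted p = 0.000448 in limma). Endothelial means were 6.89 to 8.41 on the early iron arrays and 7.35 to 8.21 on the late ones, and the highest early Npr1 value was on the array with the highest early endothelial mean. The part of endothelial cells in the Npr1 difference was not tested. Pcsk6, the protease that activates corin, rose by 0.53 ± 0.147 (adjusted p = 0.0229 in limma). Corin, the surface enzyme that cuts pro-atrial natriuretic peptide, fell by 0.23 ± 0.0682 (adjusted p = 0.0283 in limma). Prkg1, the kinase driven by cyclic GMP, was at -0.39 and Npr2, the receptor of C-type natriuretic peptide, at -0.25, both called.

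Against sham, 2 of these 10 fell on day 3, and these were the list's only calls over the 5 days. Npr3, the clearance receptor that removes the peptides, was at 7.22, 6.91 and 8.10 on day 3 and 8.59, 8.49 and 8.28 in sham, a difference of -1.04 ± 0.246 (adjusted p = 0.0245 in limma). Pcsk6 was lower by -0.94 (adjusted p = 0.0199 in limma). The day 3 arrays had the lowest endothelial means given above, and the part of endothelial cells in these differences was not tested. Without the 2 high arrays, Npr3 was at -1.32 with an adjusted p of 0.0493 and Pcsk6 at -1.04 with 0.0968, and in late against early iron 4 of the 5 calls held, Npr2 was lost and Npr3 (0.59, adjusted p = 0.0123) was added. The list's median difference in late against early iron was -0.11, beside -0.034 over all genes tested.

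**Figure D5:**
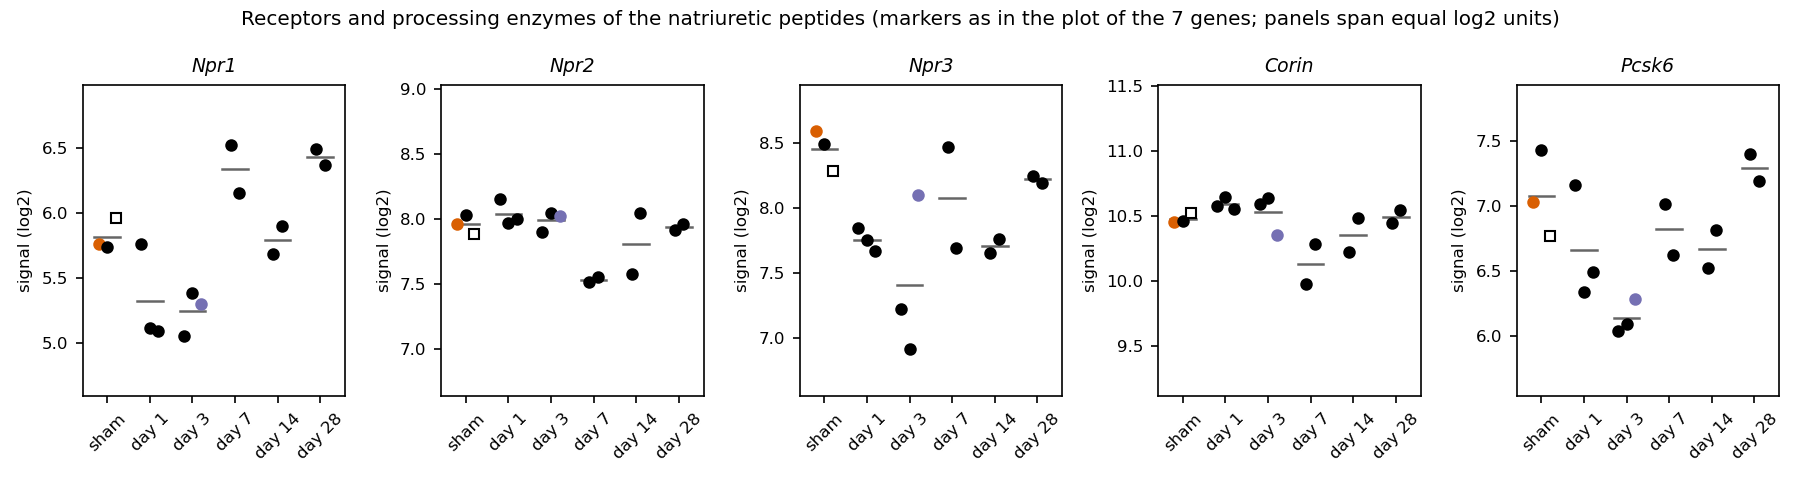
Log2 signal (vertical axis) of the receptors Npr1, Npr2 and Npr3 and the proteases Corin and Pcsk6 on each array by group (horizontal axis), with sham replicate 1 in orange, iron day 3 replicate 3 in purple, the day 3 sham array as an open square and group means as grey bars. Npr1 sits between 5.05 and 5.76 on iron days 1 and 3 and between 5.68 and 6.53 on later days.

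The regulators of atrial and natriuretic genes were called about as often as all genes in late against early iron. Of 13 tested, 3 fell, where 22% of all genes were called. They were Mef2c (-0.38), a muscle transcription factor, Hopx (-0.36), a homeodomain cofactor, and Tbx20 (-0.17), a cardiac T-box factor. Over the 5 comparisons with sham limma called 0 of 13, while 9 had an unadjusted p under 0.05 on at least 1 day. By day there were 1, 5, 2, 3 and 2 of 13 (days 1, 3, 7, 14 and 28), beside the unadjusted counts over all genes given above. Without the 2 high arrays, Tbx20 was lost (adjusted p = 0.0810).

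Of 7 other atrial-enriched genes tested, 4 fell in late against early iron, against 22% of all genes called in either direction: Kcnj5 (-0.51) and Kcnj3 (-0.37), subunits of the acetylcholine-gated potassium channel, Chrm2 (-0.38), the muscarinic receptor that opens it, and Pam (-0.28), a peptide-amidating enzyme of atrial secretory granules. The same 4 were called without the 2 high arrays. On day 7 against sham, where 4.61% of all genes were called, Chrm2 (-0.61, adjusted p = 0.0387 in limma) and Pam (-0.48, adjusted p = 0.0371 in limma) fell, and neither was called without the 2 arrays (0.130 and 0.118). The list's median in late against early iron was -0.28.

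Ventricle-enriched genes also fell in late against early iron, 4 of 9 beside 22% of all genes called: Irx5 (-0.53) and Irx4 (-0.47), ventricular homeobox factors, Fhl2 (-0.24), a LIM-domain protein, and Lbh (-0.24). On day 28 against sham, where 2% of all genes were called, Irx5 (-0.63) and Fhl2 (-0.28) fell and the potassium channel gene Kcnj2 rose (0.72, adjusted p = 0.0330 in limma). All 3 calls of day 28 were lost without the 2 high arrays, with adjusted p values of 0.120 to 0.185, and 3 of the 4 late against early calls held. The list's median in late against early iron was -0.15.

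Among 10 myosin light chain and kinase genes tested, Myl1 fell on day 28 against sham by -1.61 ± 0.332 (adjusted p = 0.0268 in limma; 2% of all genes called), and it was at -1.22 with 0.0786 without the 2 high arrays. In late against early iron Myl1 (-0.65) and the cardiac light chain kinase Mylk3 (-0.25) fell and Mylk, the smooth muscle light chain kinase, rose (0.33), 3 of 10 beside 22% of all genes. All 3 were also called without the 2 arrays. Myl6, the smooth and non-muscle light chain, fell on day 3 (-0.58; 8.04% of all genes called), and its adjusted p was 0.148 without them.

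Genes of load and hypertrophy, which ventricles raise together with Nppa, had 15 tested members. On day 28 against sham (2% of all genes called) 3 fell: Hspb7 (-0.35), a small cardiac heat shock protein, Acta1 (-0.998), skeletal actin, and Timp1 (-1.62), a metalloproteinase inhibitor, and all 3 calls were lost without the 2 high arrays. On day 3 (8.04% of all genes called) Timp1 was lower (-1.37) and Xirp1 higher (0.57), and those calls were lost too. In late against early iron Rcan1 rose (0.52), and Hspb7 (-0.29), Xirp2 (-0.21) and Mybpc2 (-0.49) fell, 4 of 15 beside 22% of all genes. Without the 2 high arrays 3 of these 4 calls held, and Mybpc2 was lost (adjusted p = 0.0537).

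The calcium pump partners of Sln had 7 tested members. Casq2, the calcium buffer of the cardiac sarcoplasmic reticulum, fell in late against early iron (-0.23, adjusted p = 0.000923 in limma), and Atp2a3, a non-muscle calcium pump, rose (0.50), 2 of 7 beside 22% of all genes. Both were also called without the 2 high arrays. Sri, a calcium-binding regulator of the release channel, fell on day 3 (-0.42; 8.04% of all genes called) and Casq2 on day 7 (-0.26; 4.61%), and neither call held without them.

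The pathway of Bmp10 and its relative Bmp9 had 14 tested members. In late against early iron Id3 (0.79, adjusted p = 0.00255 in limma) and Id2 (0.38), targets of this signal, rose, and Tcap (-0.90, adjusted p = 0.000419 in limma), a sarcomere protein that binds Bmp10, fell, 3 of 14 beside 22% of all genes. On day 3 against sham, Id2 (-0.89) and the endothelial co-receptor Eng (-1.38) fell, beside the low endothelial means of that day, and on day 7 Tcap fell (-0.80). Without the 2 high arrays, Id3 and Tcap were called in late against early iron and none against sham. Of the Dickkopf family and Wnt co-receptors 4 were tested: limma called 0 in any comparison, while 1 had an unadjusted p under 0.05 in any. That was on day 7 against sham, where 2396 of the 9968 genes tested passed at this level. Ctnnb1, the Wnt signal carrier beta-catenin, lay between 9.32 and 9.62 on all arrays and Kremen1, a Dickkopf receptor, between 8.48 and 9.01.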

How the data were processed

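Signals had been put on the log2 scale and normalized by the authors before deposit; the submitters' processing notes name MAS5, with its version and role not given in the sources used here. They were used as deposited (34760 probe sets, 15 arrays, 0 missing values). Each gene took its single-symbol probe set with the highest mean over the arrays, which gave 19937 genes; every member had 1 such probe set, so no other probe set could be tried. The 9968 genes with a mean above 5.51 (the 50th percentile) entered the fit with limma 3.58.1 (R 4.3.3) (6 group means, intensity trend), with Benjamini-Hochberg adjustment at 0.05; Sln, Bmp10 and Dkk3 were fitted with no filter. The number of arrays limits the precision. A detection call per probe set was not used here. Permutation tests used 100000 permutations and were two-sided.

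The members and lists were chosen with earlier results of these data known. Besides the members, up to 4 called genes of each of 9 lists and the 3 genes most like each member were named (the 2 brightest where a list had no call), and Npr2, Mybphl, Kcna5 and Sbk2 after their values were seen; lists of 14 cell types served as markers (203 of 216 listed symbols were on the array). Scripts were tested on simulated data. Alternatives are given in the closing section. Tables and figures used Python 3.11.15, pandas 2.3.3, numpy 2.4.6, scipy 1.17.1 and matplotlib 3.10.9. Proton-exposed arrays were not analysed here.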

Additional observations from a re-analysis of the deposited data

Results flagged for a closer look

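Bmp10 differed among the 5 iron days (adjusted p = 0.0382 in limma, F test over all 19937 genes), with its 2 day 7 arrays at 5.50 and 5.89 above the other 13. Its probe set was dim, in the 41.6th percentile of mean signal.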

How the results depend on the processing

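Of 185 recomputed counts 173 stayed within 1.5 times the value reported and 12 did not. The count of members called was 0 in every main comparison, so there only an unchanged 0 could count as staying. On day 3, 1 of 4 members was called without both high arrays (0.211% of all genes called), and 0 to 2 when each array was left out in turn. The 2 were called without iron day 3 replicate 3, where 3.77% of all genes were. On day 28, where the main fit called 199 of 9968 genes, array weights called 2 members (Nppa and Myl4) and 2449 genes. The sham arrays of day 1 alone called 1 (Nppa) beside 477 genes. The replicate number as a block called 1 (Nppa, -2.36, adjusted p = 0.0441 in limma) beside 393 genes. Leaving out each array in turn called 0 to 1. Nppa was at the same -2.36 with the day 1 sham arrays alone, with the block and without sham replicate 3. Each of these takes the day 3 sham array out of the Nppa difference, so they are not separate checks. In late against early iron, 2 were called without both high arrays (15.9% of all genes called) and 1 with the atrial mean as covariate (20.3%). When each array was left out in turn, 0 were called. In the F test among iron days, 1 of the 7 was called with no filter (Bmp10, with 9.98% of all genes called). Of the tested members, 1 was called with the covariate (Nppa, 13.1%) and 2 without both high arrays (8.89%). When each array was left out in turn, 0 of the 4 tested members were called. Those fits did not include Bmp10, Sln and Dkk3, so the Bmp10 call was not tried in them. Of 21 correlated pairs 10 passed, and 3 without the 2 farthest arrays.

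Changes of sign are given next. No signed difference of a member was called in the main comparison, so all of them fell on differences that were not called. With the atrial covariate, values were 0.71, 0.28 and 0.26 for Nppa (days 1, 3 and 14), 0.11 and 0.022 for Nppb (days 1 and 28), 0.081 and 0.018 for Bmp10 (days 1 and 28), and 0.19, 0.25 and 0.24 for Dkk3 (days 1, 3 and 28). Without both high arrays, they were 0.077 for Nppa on day 1, 0.073 and 0.0089 for Nppb (days 1 and 28), 0.018, 0.0095, 0.088 and 0.12 for Dkk3 (days 1, 3, 7 and 28), and 0.72, 0.12 and 0.52 for Myl7, Myl4 and Sln on day 7. Leaving out each array in turn gave -1.49 to 0.12 for Myl4 and -1.23 to 0.72 for Myl7 on day 7, and -0.051 to 0.82 for Myl4 in late against early iron. It gave -1.06 to 0.077 and -1.13 to 0.033 for Nppa on days 1 and 3. For Nppb it gave -0.25 to 0.073, -0.84 to 0.090 and -0.32 to 0.0089 on days 1, 7 and 28, and -0.22 to 0.090 in late against early iron. The cause was not tested.

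The replicate numbers were not shown to pair the arrays: residuals of 31 pairs with the same number correlated from -0.394 to 0.565 (median 0.0616), and those of 50 pairs with other numbers from -0.565 to 0.490 (median -0.0290). The day 3 sham array carries no number and had a block of its own.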
